A study of Mus musculus with 36 samples.

Results

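The 10 genes described here are a set named for the Nrf2 oxidative stress response. They are Nfe2l2, Keap1, Gclc, Gclm, Slc7a11, Gpx2, Txnrd1, Srxn1, Nqo1 and Hmox1, chosen by gene symbol, and all 10 were found among the 17716 gene names that the female and male tables share. Their expression was read from left lung RNA-seq of 36 wild-type C57BL/6 mice, divided among 6 groups with 3 female and 3 male mice apiece. The groups received saline (control), MC252 oil, the dispersant Corexit 9500, the dispersant Corexit 9527, Corexit 9500 with oil (9500+oil) or Corexit 9527 with oil (9527+oil) at a 0.1 dilution of an accommodated fraction. Doses of 50 µL were given to the airways on days 0, 7 and 13 to mice aged 8 weeks at the start, and lungs were taken on day 14, so each level was measured 1 day after the last dose. Female and male mice were numbered separately and their counts stand in separate tables, so a difference between the sexes and one between the tables cannot be told apart. The libraries hold whole left lung, and in such tissue fewer cells of a type and less RNA per cell cannot be told apart.

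Nrf2, the transcription factor encoded by Nfe2l2, is held in the cytoplasm by Keap1, the sensor protein that hands it over for ubiquitination and breakdown. Oxidants and electrophiles modify cysteines of Keap1, after which Nrf2 builds up, pairs with small Maf proteins in the nucleus and binds antioxidant response elements (AREs) near its target genes. The targets make glutathione, reduce thioredoxin and peroxiredoxin, and detoxify quinones and heme, and in the lung the pathway is known for protection against inhaled oxidants.

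Promoters from RefSeq (build GRCm38.p6), each with 250 bases before and 50 bases after a start of transcription, were on hand for Nfe2l2, Keap1, Gclm, Slc7a11, Txnrd1, Srxn1, Gpx2 and Nqo1. These 8 genes have 10 promoters, of which Txnrd1 has 3. Both strands were searched for the ARE core, TGACNNNGC, and for TGANTCA, the site of AP-1, a factor whose site can overlap an ARE. The ARE core was found in 12.4% of all 32851 promoters and in promoters of 4 of the genes, for Txnrd1 in 1 of its 3. The AP-1 letters were found in 7.81% of all promoters and in Srxn1 alone among these genes. These shares count promoters rather than genes. The windows are shown because they are the stretches in which Nrf2 would be looked for, with the motif in capitals and up to 10 bases on either side. They are given on the strand on which the motif reads as above.
Nfe2l2, chr2:75704885-75704913, minus strand: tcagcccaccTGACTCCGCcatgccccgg
Gclm, chr3:122245413-122245441, minus strand: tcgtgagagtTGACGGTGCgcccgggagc
Txnrd1, chr10:82859104-82859132, minus strand: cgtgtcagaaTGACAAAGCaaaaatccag
Srxn1, chr2:152105542-152105570, minus strand: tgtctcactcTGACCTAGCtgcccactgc
Srxn1, AP-1, chr2:152105412-152105438, plus strand: tcggagggccTGAGTCAccacgctgtg
Srxn1, AP-1, chr2:152105469-152105495, plus strand: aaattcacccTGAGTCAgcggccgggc
The Srxn1 core lies after the start of transcription, and the other windows lie before it. A match describes letters only and no binding of Nrf2 was measured.

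Between 17501180 and 30011557 counts were assigned to genes per mouse. In 4 female libraries (saline 3, oil 6, Corexit 9527 11 and 9500+oil 14, numbered by mouse) mitochondrial genes took 20.7% to 45.1% of the counts, against 6.16% to 11.3% in the other 14 female and 5.27% to 7.68% in the 18 male libraries. In the same 4 libraries the GC-richest 10% of genes stood 2.80 to 4.38 lower on the log2 scale, relative to the GC-poorest 10%, than in the median female library, and hemoglobin and other red cell genes summed to 362 to 1033 CPM (read counts scaled to a common library size) against 2969 to 9189 CPM in the other female libraries. Of the other 12 lung marker sums, those of ciliated cells (181 to 353 against 522 to 959 CPM) and alveolar type 1 cells (2561 to 2854 against 2938 to 4056 CPM) also lay below without overlap. Values without them are given beside the results that they move most. The lung was checked by its defining markers. All 8 alveolar type 2 genes and all 5 club cell genes had a median above 1 CPM in both sexes, and the genes of gut, liver and thymus summed to at most 12.4 CPM in female mice (6 genes found) and 27.7 CPM in male mice (7 genes), the latter in a Corexit 9527 mouse.

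Levels are CPM of the effective library size (TMM), and levels of different genes are compared only after division by transcript length in kilobases. On that scale Nfe2l2 had the highest median over the 18 male mice, 92.1 CPM per kilobase. Gclc followed with 78.4, Gclm with 42.2, Hmox1 with 28.2, Keap1 with 21.6, Txnrd1 with 19.1, Srxn1 with 9.39, Nqo1 with 3.17, Slc7a11 with 0.612 and Gpx2 with 0.385 CPM per kilobase. The order was the same in female mice, from 111 for Nfe2l2 and 65.6 for Gclc down to 0.333 for Slc7a11 and 0 for Gpx2. Ranges of neighbours in this order overlapped in male mice except between Gclc and Gclm, Txnrd1 and Srxn1, and Nqo1 and Slc7a11. Txnrd1 ran from 42.9 to 81.7 CPM in male and from 25.4 to 53.9 CPM in female mice, a difference between tables that were normalized separately and that was not tested.

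**Figure D1:**
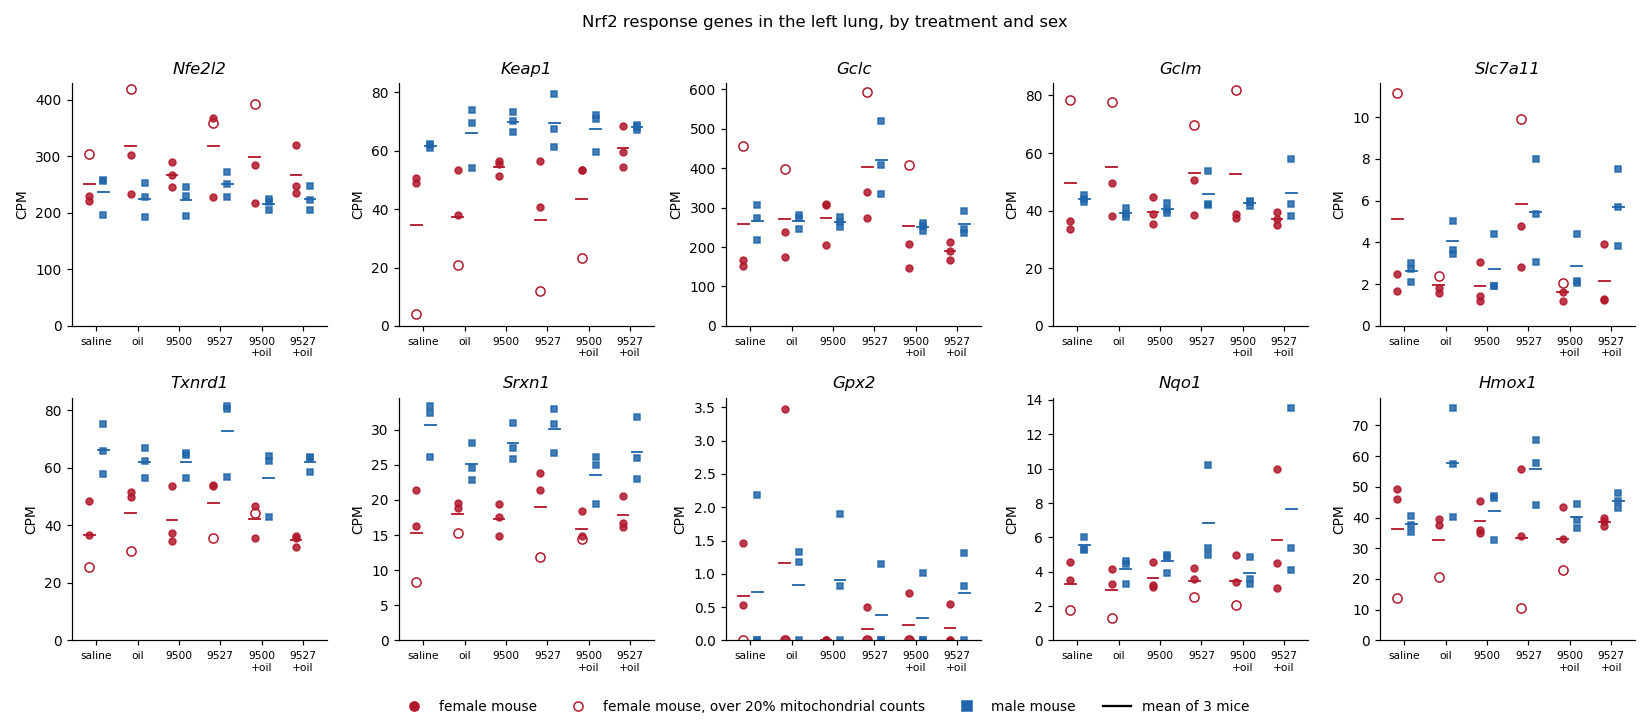
Level of each of the 10 genes in CPM (linear axes from 0) in every mouse, by treatment, with female mice as circles, male mice as squares and bars at the mean of 3 mice. Open circles are the 4 female libraries with over 20% mitochondrial counts, which hold the highest Gclc and Gclm levels of their own group (up to 593 and 81.9 CPM) and its lowest Keap1 and Hmox1 levels (down to 3.98 and 10.5 CPM).

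Among the regulators, Nfe2l2 hardly varied in male mice. It ran from 194 to 273 CPM over the 18 mice, with a mean of 237 ± 34.9 CPM in saline and 251 ± 22.1 CPM in Corexit 9527 mice (SD, n = 3). Keap1 was at 62.3, 62.0 and 60.9 CPM in male saline mice. It was at 70.1, 73.3 and 66.4 CPM in male Corexit 9500 mice and at 68.9, 67.3 and 68.3 CPM in male 9527+oil mice. All 3 mice of both groups were thus above all 3 saline mice, but by a log2 fold change of no more than 0.18 (SE 0.08, edgeR adjusted p = 0.782) with Corexit 9500. In female mice Keap1 was at 50.7, 49.1 and 3.98 CPM in saline, at 51.4, 56.7 and 55.4 CPM in Corexit 9500 and at 59.7, 68.7 and 54.4 CPM in 9527+oil mice. Again both groups lay above saline. The lowest value is that of saline mouse 3, a library of high mitochondrial share.

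Gclc encodes the catalytic subunit of glutamate-cysteine ligase, the enzyme that limits the rate of glutathione synthesis (ENSMUSG00000032350, chr9:77754535-77794485, plus strand, GRCm38). It was the member with the smallest p across the 6 male groups. In male mice it was at 217, 307 and 273 CPM in saline and at 335, 520 and 408 CPM in Corexit 9527 mice. Every Corexit 9527 mouse was above every saline mouse, and the other 12 treated male mice, at 235 to 292 CPM, lay within the saline range. Marker sums of several cell types also stood apart from saline in the male Corexit 9527 mice. The proliferation sum was 125 to 288 CPM against 49.9 to 80.1 CPM, the fibroblast and smooth muscle sum 3508 to 4070 CPM against 2876 to 3278 CPM, and the macrophage sum was higher too. The endothelial sum was lower, at 3232 to 3317 CPM against 3756 to 4494 CPM, and so were the red cell sum, at 2720 to 6785 CPM against 7533 to 12533 CPM, the club cell sum, at 16799 to 21299 CPM against 22388 to 28241 CPM, and the neutrophil sum, at 124 to 284 CPM against 307 to 320 CPM. Their part in the Gclc levels was not tested. In female mice Gclc was at 151, 166 and 456 CPM in saline, and at 275, 593 and 339 CPM in Corexit 9527 mice. The groups overlapped through saline mouse 3, the library at 456 CPM, and without saline mouse 3 and Corexit 9527 mouse 11 both remaining Corexit 9527 mice were above both remaining saline mice, as in 16.4% of all genes. The same 2 saline mice also lay below the female mice given Corexit 9500, at 308, 204 and 307 CPM, oil, at 237, 175 and 397 CPM, and 9527+oil, at 190, 167 and 212 CPM, with 167 and 166 CPM as the closest pair. Without the 4 libraries such a separation upward was found in 7.41%, 11.6% and 14.6% of all genes for Corexit 9500, oil and 9527+oil. The 9500+oil mice, at 146, 409 and 207 CPM, overlapped with them. Gclc was lower in all 3 female 9527+oil mice than in any female mouse given Corexit 9527 alone, as were 12.3% of all genes.

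Gclm, the modifier subunit of the same ligase, did not follow Gclc in male mice. It was at 43.0, 44.1 and 45.3 CPM in male saline mice and at 42.0, 42.2 and 53.6 CPM in male Corexit 9527 mice, which overlapped. With oil it was at 37.7, 40.8 and 38.8 CPM and with Corexit 9500 at 40.3, 39.2 and 42.6 CPM, in each case below every saline mouse. In female mice it ran from 33.6 to 50.5 CPM outside the 4 libraries of high mitochondrial share and from 69.8 to 81.9 CPM within them.

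Slc7a11, the light chain of the cystine-glutamate exchanger that brings in cystine for glutathione (ENSMUSG00000027737, chr3:49892526-50443614, minus strand), was low in all lungs, with at most 173 counts in a mouse. In male mice it was at 3.03, 2.10 and 2.71 CPM in saline, at 3.66, 3.46 and 5.03 CPM in oil, at 3.05, 5.36 and 8.02 CPM in Corexit 9527 and at 7.53, 3.85 and 5.71 CPM in 9527+oil mice. All 3 of those treated groups lay above saline, although the closest pair was 3.05 CPM with Corexit 9527 and 3.03 CPM with saline. The Corexit 9500 mice, at 1.93, 4.40 and 1.90 CPM, and the 9500+oil mice, at 4.40, 2.14 and 2.05 CPM, overlapped with saline. In female mice the highest values were 11.1 CPM in saline mouse 3 and 9.90 CPM in Corexit 9527 mouse 11, both of high mitochondrial share, and the other 16 mice ran up to 4.79 CPM.

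Gpx2, a glutathione peroxidase found mostly in epithelium, was listed at 0 in 12 of 18 female and 9 of 18 male mice, and its highest count was 85 in female and 57 in male mice. For these 21 mice 3 counts, the number that a count of 0 still allows, would be between 0.0906 and 0.352 CPM. This limit covers counting error only. In the other mice the counts were 17 to 85, and mice of 1 group were divided between 0 and such counts, as in male saline mice at 44, 0 and 0 counts. No difference between groups is read from these values, and the gene fell below the filter on low counts in female mice for Corexit 9500, and in male mice for Corexit 9527 and 9500+oil.

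Txnrd1, the thioredoxin reductase of the cytosol, was at 66.0, 75.2 and 57.8 CPM in male saline mice and at 57.0, 81.7 and 80.4 CPM in male Corexit 9527 mice, and no treated group of either sex separated from all 3 saline mice. Against the female saline mice of usual mitochondrial share, at 36.6 and 48.3 CPM, the remaining mice given oil (49.7 and 51.6 CPM) and Corexit 9527 (53.7 and 53.9 CPM) lay above both and the 9527+oil mice (36.3, 35.7 and 32.6 CPM) below both. Of all genes 11.6% lay above both for oil, 16.4% above both for Corexit 9527 and 16.1% below both for 9527+oil. Srxn1, the sulfiredoxin that restores oxidized peroxiredoxins, was at 32.4, 33.3 and 26.1 CPM in male saline and at 25.0, 19.4 and 26.0 CPM in male 9500+oil mice. The latter were all below saline, with 26.0 and 26.1 CPM as the closest pair. The other 4 male treated groups, between 22.9 and 32.9 CPM, overlapped with saline.

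Nqo1, the quinone reductase that is often used as a reporter of Nrf2 activity, was at 6.02, 5.25 and 5.33 CPM in male saline mice. It was lower in all 3 male mice given oil (4.47, 4.63 and 3.28 CPM), Corexit 9500 (4.99, 3.95 and 4.87 CPM) or 9500+oil (4.88, 3.27 and 3.60 CPM). With Corexit 9527 the male mice were at 4.96, 5.36 and 10.2 CPM and overlapped with saline, with 1 mouse above the rest. With 9527+oil the male mice were at 13.5, 5.39 and 4.11 CPM, and the mean of 7.68 CPM rests on the mouse at 13.5 CPM. Likewise a single female 9527+oil mouse at 9.98 CPM stood above the other 17 female mice, which reached 4.97 CPM.

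Hmox1, the inducible heme oxygenase (ENSMUSG00000005413, chr8:75093621-75100589, plus strand), is made in quantity by macrophages as well as by stressed epithelium. In male mice it was at 37.6, 40.5 and 35.4 CPM in saline, at 57.5, 40.0 and 75.8 CPM in oil, at 44.1, 57.7 and 65.1 CPM in Corexit 9527 and at 45.3, 48.1 and 43.0 CPM in 9527+oil mice. Every Corexit 9527 and 9527+oil mouse was above every saline mouse, and with oil 2 of 3 were. The Corexit 9500 mice, at 46.4, 47.1 and 32.7 CPM, and the 9500+oil mice, at 36.4, 39.3 and 44.4 CPM, overlapped with saline. The sum of the 14 macrophage markers, all detected, lay above saline without overlap in oil, Corexit 9527, 9527+oil and 9500+oil mice. It was 684 to 721 CPM in male saline, 939 to 1283 CPM in oil, 871 to 1022 CPM in Corexit 9527, 813 to 865 CPM in 9527+oil, 765 to 813 CPM in 9500+oil and 692 to 933 CPM in Corexit 9500 mice. With oil the neutrophil sum, at 392 to 1127 CPM against 307 to 320 CPM in saline, and the proliferation sum, at 92.1 to 157 CPM against 49.9 to 80.1 CPM, were above saline as well. Their part in the Hmox1 levels was not tested. In the female libraries of usual mitochondrial share Hmox1 was at 46.0 and 49.3 CPM in saline. It was below both of these mice with oil (37.5 and 39.6 CPM), Corexit 9500 (35.0, 35.8 and 45.4 CPM), 9500+oil (43.5 and 33.0 CPM) and 9527+oil (38.8, 37.2 and 40.0 CPM), and with Corexit 9527 (55.8 and 34.1 CPM) it overlapped. Of all genes 11.4% lay below both saline mice for oil, 9.92% for Corexit 9500, 12.8% for 9500+oil and 16.1% for 9527+oil, so such a separation from 2 mice was common. Without the libraries of high mitochondrial share the log2 fold changes of Hmox1 in these 4 groups were -0.31 to -0.30, with edgeR adjusted p values of 0.347 or more. With all libraries they were -0.18 (SE 0.52) for oil, 0.09 (SE 0.51) for Corexit 9500, -0.15 (SE 0.52) for 9500+oil and 0.08 (SE 0.48) for 9527+oil, so the direction turned for Corexit 9500 and 9527+oil.

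Across the 6 male groups, edgeR's quasi-likelihood test with Benjamini-Hochberg adjustment over all genes found a difference at an adjusted p under 0.05 for 0 of the 10 members and for 0.135% of all 15519 genes tested. Gclc came closest, with an adjusted p of 0.0719 and rank 77 by p among all genes. At an unadjusted p under 0.05 there were 3 members, Gclc, Hmox1 (adjusted p = 0.390) and Slc7a11 (adjusted p = 0.432), where 10.4% of all genes passed. Across the 6 female groups the counts were 0 of 10 at an adjusted p, against 0.0129% of all genes, and 0 at an unadjusted p, against 1.35%.

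Each treatment was then set against the saline mice of the same sex, 3 against 3, and the 5 comparisons of a sex share those saline mice. No member passed the adjusted threshold in any of the 10 comparisons, in which the share of all genes passing it was 0 in the 5 female comparisons and for male 9500+oil, 0.00671% for male oil, 0.00662% for male Corexit 9500, 0.114% for male Corexit 9527 and 0.00669% for male 9527+oil. For male Corexit 9527, 3 of 9 tested members were higher at an unadjusted p under 0.05, where 7.96% of all genes were higher and 13.7% passed in either direction. These were Hmox1 with a log2 fold change of 0.56 (SE 0.15, adjusted p = 0.165), Gclc with 0.66 (SE 0.18, adjusted p = 0.169) and Slc7a11 with 1.06 (SE 0.37, adjusted p = 0.251). By DESeq2 Gclc (adjusted p = 0.00979) and Hmox1 (adjusted p = 0.0257) passed, and 587 genes in all did, against 17 by edgeR. All 9 tested members but Srxn1, at -0.02, had a positive value, and the median over the members was 0.17 beside -0.01 over all genes. In the same comparison 3 members had all treated mice above all saline mice, as did 10.4% of all genes.

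For male oil, 2 of 10 members were higher at an unadjusted p under 0.05, against 5.75% of all genes higher and 8.21% in either direction. They were Hmox1 with a log2 fold change of 0.61 (SE 0.20, adjusted p = 0.468) and Slc7a11 with 0.63 (SE 0.27, adjusted p = 0.588). Slc7a11 had no overlap with saline upward, where 7.38% of all genes had none, and Gclm and Nqo1 had none downward, where 5.35% had none. For male 9527+oil, 2 of 10 members were higher, against 3.54% of all genes higher and 5.54% in either direction. Slc7a11 had a log2 fold change of 1.12 (SE 0.30) and Hmox1 one of 0.26 (SE 0.10), both with an adjusted p of 0.885. Keap1, Slc7a11 and Hmox1 lay above saline without overlap, as did 5.86% of all genes.

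For male 9500+oil, 2 of 9 members were lower, against 4.04% of all genes lower and 9.22% in either direction. Srxn1 had a log2 fold change of -0.38 (SE 0.14, adjusted p = 0.517) and Nqo1 one of -0.50 (SE 0.22, adjusted p = 0.537). Both lay below saline without overlap, as did 7.52% of all genes. For male Corexit 9500, 0 of 10 members passed an unadjusted p under 0.05, against 6.35% of all genes. Without overlap Keap1 lay above saline, where 6.39% of all genes did, and Gclm and Nqo1 below, where 5.3% did.

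In female mice 0 members passed an unadjusted p under 0.05 in any of the 5 comparisons with saline, in which 0.108% (oil), 0.364% (Corexit 9500), 0.267% (Corexit 9527), 0.155% (9500+oil) and 1.1% (9527+oil) of all genes passed. Keap1 lay above saline without overlap for Corexit 9500, as did 3.53% of all genes, and for 9527+oil, as did 10.5%. For Gclc with Corexit 9527 the log2 fold change was 0.63 (SE 0.60), with a 95% interval from -0.81 to 2.06, against 0.66 (SE 0.18) in male mice. Without saline mouse 3 and Corexit 9527 mouse 11 it was 0.96 (SE 0.19, adjusted p = 0.350). Without the 4 libraries of high mitochondrial share, 2 or 3 treated mice stood against 2 saline mice, and some members separated for each treatment. For oil 4 members lay above both saline mice (Nfe2l2, Gclc, Gclm and Txnrd1, beside 11.6% of all genes) and Hmox1 below (11.4%). For Corexit 9500, Nfe2l2, Keap1 and Gclc lay above (7.41%), and Hmox1 below (9.92%). For Corexit 9527, 5 members lay above (Gclc, Gclm, Slc7a11, Txnrd1 and Srxn1), beside 16.4% of all genes. Gpx2 is left out here, as no difference is read from its counts. For 9500+oil, Keap1 and Gclm lay above (10.7%), and Slc7a11 and Hmox1 below (12.8%). For 9527+oil, Nfe2l2, Keap1 and Gclc lay above (14.6%), and Txnrd1 and Hmox1 below (16.1%).

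**Figure D2:**
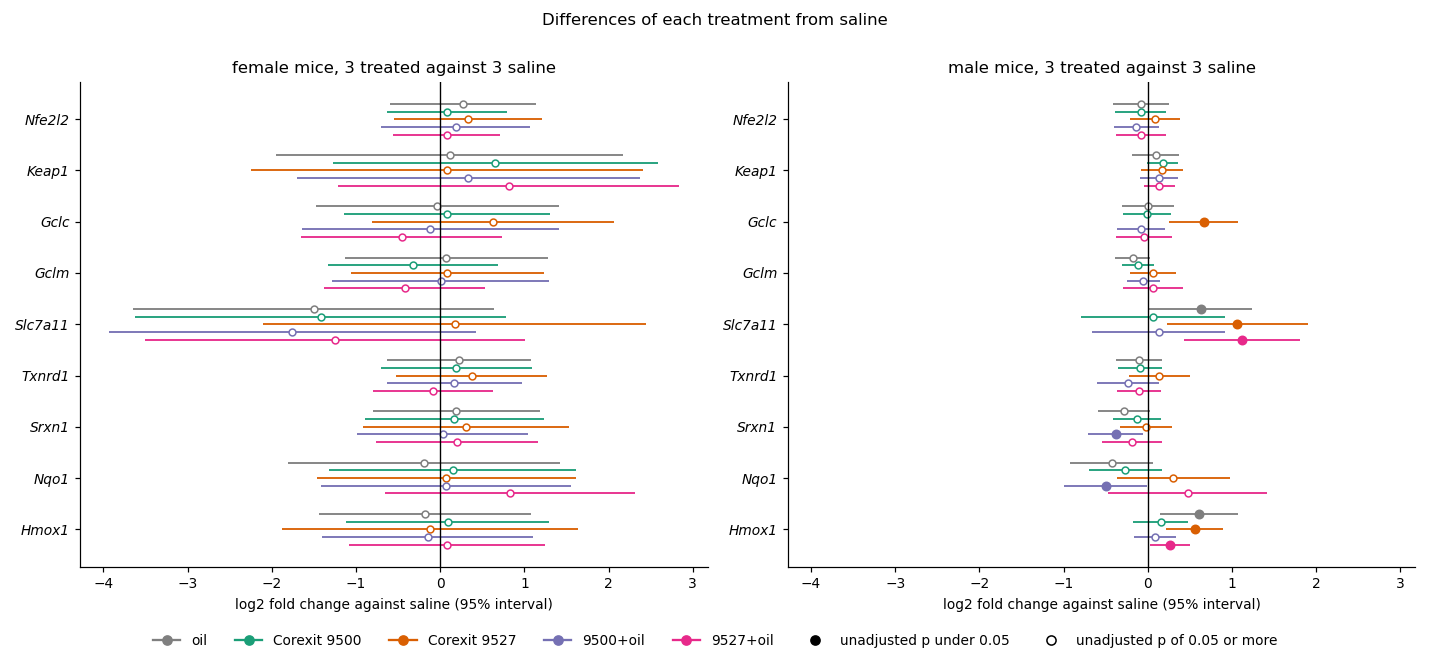
Log2 fold change of each member against the saline mice of its sex (3 against 3 mice) with its 95% interval, for the 5 treatments. Gpx2, listed at 0 in most mice, is left out. Filled points have an unadjusted p under 0.05, which occurred in male mice only, where Gclc passed with Corexit 9527 and Slc7a11 and Hmox1 with oil, Corexit 9527 and 9527+oil, and Srxn1 and Nqo1, both lower, with 9500+oil. Female intervals are wider, and every female comparison holds saline mouse 3.

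Over both sexes, with sex as a covariate and 6 treated against 6 saline mice, 0 of 10 members passed either threshold in any of the 5 comparisons, which share the 6 saline mice. The share of all genes at an adjusted p under 0.05 was 0.0326% for Corexit 9527 and 0 for the others, and at an unadjusted p it was 0.442% for oil, 2.3% for Corexit 9500, 2.86% for Corexit 9527, 0.418% for 9500+oil and 2.99% for 9527+oil. The member with the smallest p was Gclc for Corexit 9527, with a log2 fold change of 0.64 (SE 0.30, adjusted p = 1.000). For the other treatments it was Nqo1 for oil (-0.31, SE 0.32) and for 9527+oil (0.65, SE 0.38), and Slc7a11 for Corexit 9500 (-0.67, SE 0.54) and for 9500+oil (-0.73, SE 0.53). Both negative Slc7a11 values rest on saline mouse 3, the female mouse with 11.1 CPM, without which they were -0.03 (SE 0.33) for Corexit 9500 and -0.09 (SE 0.28) for 9500+oil. Without the libraries of high mitochondrial share Nqo1 was at -0.30 (SE 0.17) for oil and at 0.51 (SE 0.34) for 9527+oil. Both Nqo1 values for 9527+oil include male mouse 16 at 13.5 CPM and female mouse 16 at 9.98 CPM, which stood above the rest of their groups.

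The Corexit 9527 result for Gclc changed its side of the threshold with the libraries of high mitochondrial share. Without saline mouse 3 and Corexit 9527 mouse 11, Gclc passed with a log2 fold change of 0.78 (SE 0.14, edgeR adjusted p = 0.0178), and Slc7a11 was at 0.98 (SE 0.28, adjusted p = 0.101). With all libraries kept but weighted by their quality (limma voom), Gclc was at 0.66 (SE 0.13, adjusted p = 0.0123). When saline mouse 3 alone was left out the adjusted p was 0.256 at a log2 fold change of 0.96, and when Corexit 9527 mouse 11 alone was left out the log2 fold change was 0.47 with an adjusted p of 1.000.

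Pairs of agents were compared over both sexes, in 3 comparisons. Corexit 9527 against Corexit 9500, the dispersants without oil at the same dilution and times, showed 0 of 10 members at an adjusted p under 0.05, where 0% of all genes passed. At an unadjusted p, 2 members passed against 3.33% of all genes. Slc7a11 was higher with Corexit 9527 by 1.30 on the log2 scale (SE 0.42, interval 0.39 to 2.21) and Gclc by 0.61 (SE 0.21, interval 0.17 to 1.06), both with an adjusted p of 0.800. Without Corexit 9527 mouse 11 these were 1.00 (SE 0.36) for Slc7a11 and 0.45 (SE 0.16) for Gclc, with an adjusted p of 0.911. Hmox1 differed by 0.10, with an interval from -0.59 to 0.79 that does not exclude a difference either way.

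For 9500+oil against Corexit 9500, 0 of 10 members passed either threshold, where 0% of all genes passed at an adjusted and 1.95% at an unadjusted p, and the member values ran from -0.18 to 0.37. Without female 9500+oil mouse 14 Gclc was at -0.31 (SE 0.15, adjusted p = 1.000). For 9527+oil against Corexit 9527, 0 of 10 members passed at an adjusted p, where 0.559% of all genes passed, and 2 at an unadjusted p, where 14.1% passed. Both were lower with oil added. Gclc had a log2 fold change of -0.89 (SE 0.20, adjusted p = 0.0889), so its level was 0.540 of that with Corexit 9527 alone, and Txnrd1 one of -0.34 (SE 0.14, adjusted p = 0.327). All 6 mice given 9527+oil had less Gclc than any Corexit 9527 mouse of the same sex, as in 3.38% of all genes. Marker sums separated in the same way. The proliferation sum was lower with oil added, at 55.3 to 77.8 against 195 to 269 CPM in female and 72.7 to 102 against 125 to 288 CPM in male mice, as were the fibroblast and smooth muscle sum, at 2170 to 2834 against 2876 to 3431 CPM and 2904 to 3137 against 3508 to 4070 CPM, and the macrophage sum, at 581 to 613 against 713 to 876 CPM and 813 to 865 against 871 to 1022 CPM. The endothelial sum was higher, at 3521 to 3948 against 2199 to 2729 CPM in female and 3728 to 3984 against 3232 to 3317 CPM in male mice, and the club cell sum, at 14662 to 17983 against 9912 to 17101 CPM in female mice, separated in male mice alone (23112 to 26668 against 16799 to 21299 CPM). Their part in the Gclc and Txnrd1 levels was not tested. Without Corexit 9527 mouse 11, both passed, and all genes passing rose from 86 to 1039. Gclc then had a log2 fold change of -0.70 (SE 0.12, adjusted p = 0.00721) and Txnrd1 one of -0.41 (SE 0.11, adjusted p = 0.0397). This comparison shares the Corexit 9527 mice with those above.

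**Figure D3:**
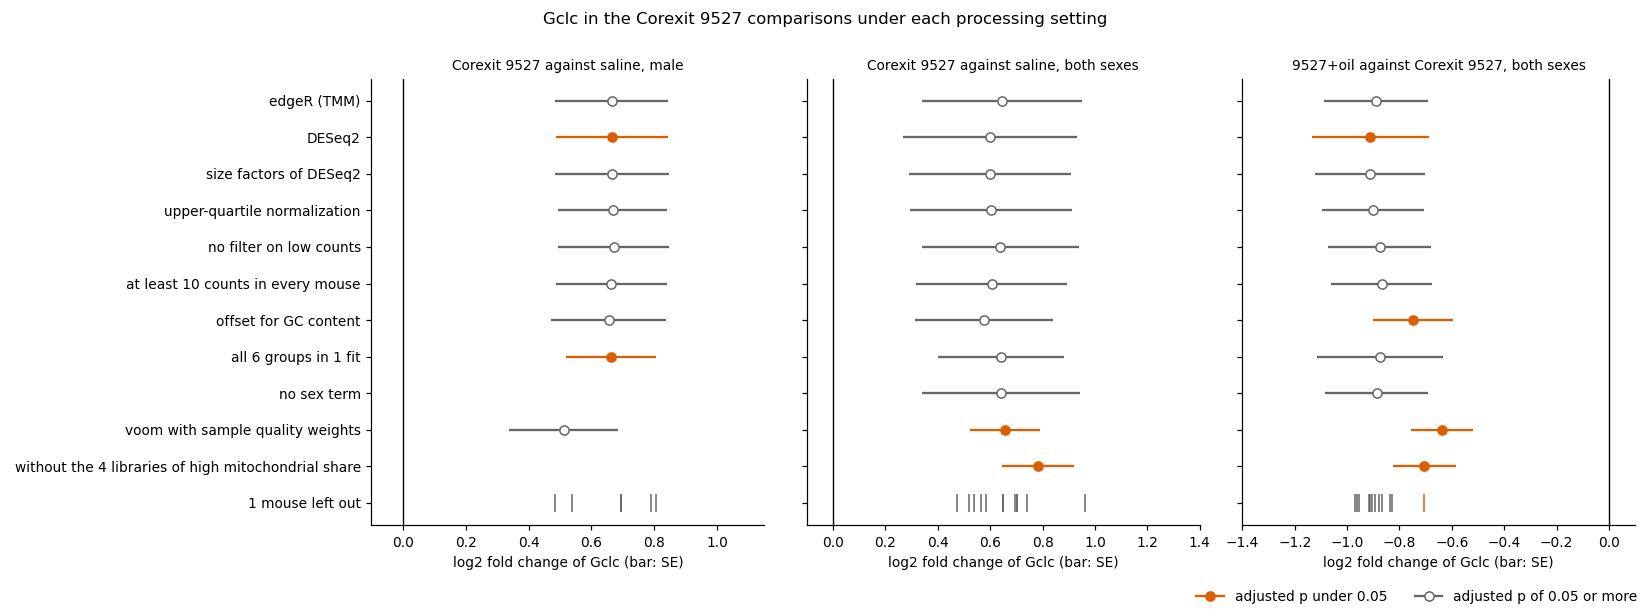
Log2 fold change of Gclc with its SE (bars) in the 3 comparisons that involve Corexit 9527 most directly, under each processing setting, and with each mouse left out in turn (ticks in the lowest line). Filled orange marks have an adjusted p under 0.05. The sign never changed, at 0.48 to 0.80 in male mice and -0.97 to -0.64 for 9527+oil against Corexit 9527, while the side of the threshold did. Over both sexes the value moved when saline mouse 3 or Corexit 9527 mouse 11 was left out, as given above.

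The sexes were compared by the interaction of sex and treatment. No member passed an adjusted p under 0.05 in any of the 5 interactions, where 0% of all genes passed. At an unadjusted p, Slc7a11 passed for oil, where 1.65% of all genes passed, and for 9527+oil, where 2.39% did. No member passed for Corexit 9500 (0.726% of all genes), Corexit 9527 (0.352%) or 9500+oil (0.509%). For Gclc the Corexit 9527 effect in male minus female mice was 0.03 (SE 0.64) with all libraries and -0.30 (SE 0.28, adjusted p = 0.999) without saline mouse 3 and Corexit 9527 mouse 11.

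The 4 libraries of high mitochondrial share moved the members in both directions, and by amounts that depend on the scaling. On the TMM scale all 4 were above the other 14 female libraries in Gclc (397 to 593 against 146 to 339 CPM) and Gclm, and below them in Keap1 (3.98 to 23.3 against 38.0 to 68.7 CPM), Hmox1 (10.5 to 22.8 against 33.0 to 55.8 CPM) and Nqo1 (1.29 to 2.55 against 3.08 to 9.98 CPM). Of all genes 19.2% lay above and 23.6% below in this way. The TMM factors of these libraries were 0.488 to 0.863, against 1.05 to 1.19 in the others. In CPM of all counts, without TMM, the separation of Gclc (222 to 353 against 168 to 374) and of Gclm was lost, while Keap1, Hmox1 and Nqo1 still lay below without overlap and so did Srxn1, as did 34.3% of all genes. Of the transcripts of the members, that of Keap1 had the highest GC content, 59.2%, and that of Slc7a11 the lowest, 44.1%, with Nqo1 at 46.7% and Gclc at 47.7%. The paper states that the RNA integrity numbers of all specimens passed its check before sequencing. The part of GC content or RNA quality in these levels was not tested.

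**Figure D4:**
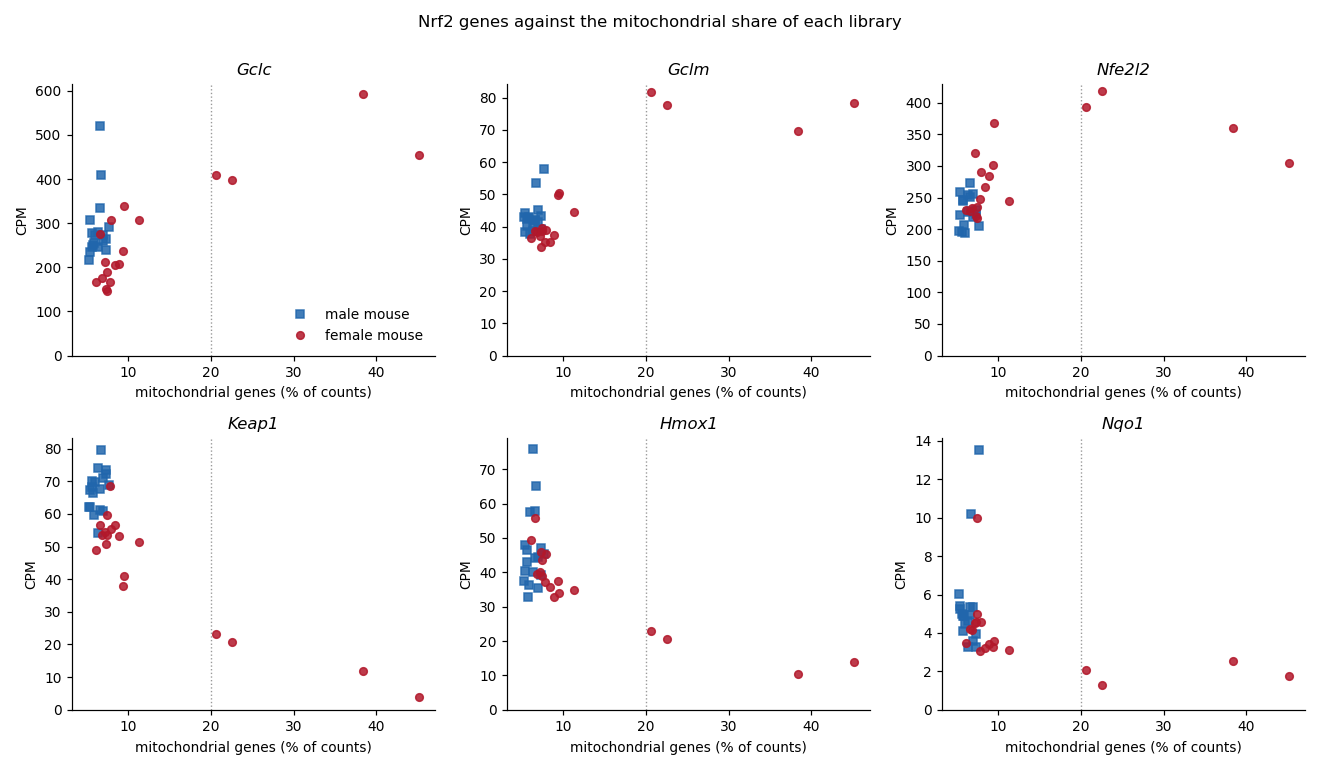
CPM of 6 members (linear axes from 0) against the share of counts in mitochondrial genes, in percent, for each female (circle) and male (square) library. The dotted line marks 20%. The 4 libraries to its right hold Gclc at 397 to 593 CPM and Keap1 at 3.98 to 23.3 CPM.

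The other genes of the pathway were followed as a list of 97 regulators, enzymes and transporters that act with Nrf2 or are known as its targets, of which 94 or 95 could be tested. None passed an adjusted p under 0.05 in any of the 25 comparisons by edgeR. With other settings the count rose above 0 in 11 of 225 refits, and with 1 mouse left out in 4 of 252. At an unadjusted p, 12 of 95 passed across the 6 male groups, beside 10.4% of all genes. Against male saline 14 passed for oil (5 higher, 9 lower), beside 8.21% of all genes, and 10 for Corexit 9500 (7 and 3), beside 6.35%. For Corexit 9527 there were 14 (11 and 3), beside 13.7%, for 9500+oil 9 (3 and 6), beside 9.22%, and for 9527+oil 5 (4 and 1), beside 5.54%. The medians of the list were -0.01, -0.02, 0.04, -0.03 and 0.04 in these 5 male comparisons, with the median of all genes between -0.013 and -0.0037. In female mice 1 of 95 passed across the 6 groups, beside 1.35% of all genes. Against female saline 1, lower, passed for 9527+oil, beside 1.1%, and 0 passed for oil (0.108%), Corexit 9500 (0.364%), Corexit 9527 (0.267%) and 9500+oil (0.155%). With male Corexit 9527 the values included the aldo-keto reductase Akr1b8 (1.02, SE 0.27) and the glutaredoxin Glrx (0.85, SE 0.23). The peroxiredoxin Prdx4 was at 0.56 (SE 0.13) and malic enzyme Me1, which supplies NADPH, at 0.44 (SE 0.12). Of 17 tested glutathione transferases 5 passed, beside 13.7% of all genes. Gsto1 (0.58, SE 0.15), Mgst3 (0.52, SE 0.15) and Gstt2 (0.78, SE 0.33) were higher, and Gstk1 (-0.56, SE 0.12) and Gstm2 (-0.22, SE 0.10) lower. With male oil, 4 of 16 tested glutathione transferases passed, all lower, where 2.45% of all genes were lower, among them Gstm1 (-0.37, SE 0.10) and Gsta3 (-0.32, SE 0.09). The aldehyde dehydrogenase Aldh3a1 (-0.59, SE 0.20) was lower too. Higher with male oil were Glrx (0.47, SE 0.12), which had the smallest p of the list there, Msrb1 (0.51, SE 0.17), Abcc4, Blvrb and Gpx1. With male 9500+oil, 3 of 17 tested transferases passed, again all lower, where 4.04% of all genes were lower.

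Over both sexes 1 of 95 pathway genes passed an unadjusted p under 0.05 for oil (0.442% of all genes), 2 for Corexit 9500 (2.3%), 1 for Corexit 9527 (2.86%), 0 for 9500+oil (0.418%) and 3 for 9527+oil (2.99%). The 3 smallest p values were those of the exporter Abcc4, Idh1 and glutathione reductase (Gsr) for oil, of Prdx4, extracellular superoxide dismutase (Sod3) and the repressor Bach1 for Corexit 9500, of Abcc4, Chac2 and Palb2 for Corexit 9527, of Abcc4, Chac2 and Sod3 for 9500+oil, and of Gsr, Sod3 and Abcc4 for 9527+oil. Abcc4 was at 0.49 (SE 0.19), 0.58 (SE 0.26), 0.40 (SE 0.19) and 0.26 (SE 0.12) for oil, Corexit 9527, 9500+oil and 9527+oil, values that share their saline mice. For Corexit 9527 against Corexit 9500 there were 3 (1 higher, 2 lower), beside 3.33%, and for 9500+oil against Corexit 9500 there were 5, all lower, beside 1.95%. For 9527+oil against Corexit 9527, 15 pathway genes passed, 8 higher and 7 lower with oil, beside 14.1% of all genes. Glrx (-0.98, SE 0.24, adjusted p = 0.125) and Me1 (-0.88, SE 0.24) were lower, as Gclc was. Among the transferases Gstm3 (1.36, SE 0.44), Gstm1 (0.72, SE 0.31) and Gstm2 (0.29, SE 0.11) were higher and Gsto1 (-0.37, SE 0.16) was lower.

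Because Gclc had the smallest p among the male groups, the genes most like it were sought by Pearson correlation of log2 CPM over the 18 male mice, among 15258 other genes. The 5 highest were the aminopeptidase Lap3 (r = 0.92), the alarmin cytokine Il33 (0.90), the chloride transporter Clcn5 (0.87), Uhrf1bp1l (0.87) and Akr1b8 (0.86). Over the 14 female libraries outside those of high mitochondrial share the values were 0.70, 0.91, 0.75, 0.72 and 0.54 in the same order, and over all 18 they were 0.81, 0.92, 0.01, 0.91 and -0.50. The closest other member in male mice was Txnrd1 (0.60), with Gclm at 0.33. Over the 14 female libraries Gclm (0.67) and Nfe2l2 (0.63) were closer than Txnrd1 (0.36), and over all 18 Gclm was at 0.86 and Txnrd1 at -0.21. These are descriptions over mice that share their treatment groups, and carry no p.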

How the data were processed

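Poly(A) RNA from the left lungs of 36 mice was sequenced. Per the study's methods and the submitters' processing notes, the authors estimated reads per transcript with Salmon (version not given in the sources used here) against GRCm38 cDNA and combined them with tximport. The deposited tables, one per sex, hold these estimated counts, not normalized, and all were already whole numbers. The methods speak of transcript identifiers while rows carry gene symbols, so how transcripts were summed is not known here. Rows with a repeated name, 4 per sex with 0.0103% and 0.0128% of counts, were left out, and 24 rows per sex named by dates were kept. No gene fell under a row sum of 10 in either table. Depth was 17501180 to 30011557 counts per mouse.

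Groups came from the sample labels. The labels give intratracheal instillation of a water-accommodated fraction, and the paper oropharyngeal aspiration of a saline-accommodated fraction. Genes were tested with edgeR 4.0.16 (R 4.3.3), with TMM, filterByExpr, the quasi-likelihood F-test (2-sided) and Benjamini-Hochberg adjustment over all genes of a comparison, threshold 0.05. Fits held the groups compared, with a sex term over both sexes. SE is the size of the log2 fold change over the square root of F. CPM uses effective library sizes, and log2 CPM a prior count of 2. Length, GC content and positions came from GENCODE M21 (GRCm38), which matched 95.3% of names. Members, lists, thresholds and alternatives were chosen with earlier results of these data known. Every member is named, with the value of each mouse for the groups its account turns on and ranges or counts for the rest. A fold change is given where the unadjusted p was under 0.05 and for the smallest p over both sexes, and other values were chosen after they were seen. Among the pathway genes, the 3 of smallest p per treatment over both sexes are named by rule and the rest after their values were seen.

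Alternatives were DESeq2 1.42.0, its size factors, upper-quartile scaling, no filter, at least 10 counts in every mouse, limma 3.58.1 voom with quality weights, an offset for GC content (20 bins), all 6 groups in 1 fit, no sex term, no library over 20% mitochondrial counts, and each mouse left out. The test code was checked on simulated data.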

Additional observations from a re-analysis of the deposited data

Results flagged for a closer look

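The effect of treatment on Slc7a11 differed between the sexes in a pair of comparisons at an unadjusted p under 0.05, by the interaction of sex and treatment in edgeR. For oil against saline the male minus female log2 difference was 2.03 (SE 0.90, 95% interval 0.04 to 4.01, adjusted p = 1.000), beside 0.63 in male and -1.50 in female mice. For 9527+oil against saline it was 2.33 (SE 1.01, 95% interval 0.10 to 4.57, adjusted p = 0.948), beside 1.12 in male and -1.24 in female mice. The values within a sex come from separate fits, so they do not subtract exactly to the interaction. All 3 male mice of both groups were above all 3 male saline mice. The female values rest on saline mouse 3 (11.1 CPM, against 1.66 and 2.51 CPM in the other female saline mice), a library of high mitochondrial share. Without that mouse the differences for Slc7a11 were 0.73 (SE 0.45, adjusted p = 0.631) for oil and 1.07 (SE 0.65, adjusted p = 0.766) for 9527+oil. Neither result passed the adjustment.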

How the results depend on the processing

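The main count of members called was 0 in all 25 comparisons. It stayed at 0 in 214 of 225 refits with another setting. It became 1 (Gclc) for the 6 female groups with voom, for the 6 male groups with DESeq2 and with at least 10 counts in every mouse, for male Corexit 9527 with all 6 groups in 1 fit, for Corexit 9527 over both sexes with voom and without the libraries of high mitochondrial share, and for 9527+oil against Corexit 9527 with DESeq2, voom and the GC offset. It became 2 for male Corexit 9527 with DESeq2 (Gclc and Hmox1) and for 9527+oil against Corexit 9527 without the libraries of high mitochondrial share (Gclc and Txnrd1). With 1 mouse left out it ran from 0 to 2 for 9527+oil against Corexit 9527, the 2 without female Corexit 9527 mouse 11, and was 0 in the other 251 refits. The fold changes of members with an unadjusted p under 0.05, or with the smallest p over both sexes, kept their sign in these refits. Without the libraries of high mitochondrial share other fold changes turned, as for female Hmox1 with Corexit 9500 (0.09 to -0.30) and 9527+oil (0.08 to -0.30) and for the sex difference of Gclc with Corexit 9527 (0.03 to -0.30). The cause of these changes was not tested.

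All genes called moved far more. Across the 6 female groups they were 2 in the main test and 1123 with voom, and across the 6 male groups 21, 612 with DESeq2 and 73 with at least 10 counts in every mouse. For male Corexit 9527 they were 17 in the main test, 587 with DESeq2 and 284 with all 6 groups in 1 fit. For Corexit 9527 over both sexes they were 5, and 796 with voom and 331 without the libraries of high mitochondrial share. For 9527+oil against Corexit 9527 they were 86, 1570 with voom, 1039 without those libraries, 629 with DESeq2 and 133 with the GC offset. Other pathway genes called, 0 in every main test, reached 7 for male Corexit 9527 with DESeq2, 9 for Corexit 9527 over both sexes with voom, and 11 for 9527+oil against Corexit 9527 with voom and without female Corexit 9527 mouse 11. They reached 3 without male Corexit 9527 mouse 12, both for that treatment and across the male groups, and 1 across the male groups without Corexit 9500 mouse 9. No paired analysis was possible because each mouse received a single treatment and the labels name no pairs or blocks. Gpx2, listed at 0 in 21 of 36 mice, gave no usable comparison, at most 173 counts per mouse stand behind Slc7a11, and 3 mice per group limit every result.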
